A study of Nematostella vectensis and Apis mellifera and Strongylocentrotus purpuratus with 22 samples.

Results

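Some short unmethylated windows of the sea squirt genome lie directly between highly methylated windows, and 99 such gaps were found among 134565 windows of 1000 bp that could be measured in sperm, oocytes, cleavage embryos and gastrulae. A window was measured where at least 5 CpGs had at least 5 reads in each of the 4 stages, and its methylation level is the mean over these CpGs of the share of reads that carried methylation, from 0 to 1. The gaps were chosen by their own level, below 0.2 in all 4 stages, and by the sperm level of the windows directly before and after them, above 0.8. Low levels in the gaps and high sperm levels beside them are therefore the choice itself and are given as a description with no test. The animal was Ciona savignyi, a tunicate, sampled from the wild in the bay of Yantai with no treatment or allele named in the labels. DNA methylation was measured by whole-genome bisulfite sequencing (WGBS), in which unmethylated cytosines are read as T and methylated cytosines stay C. The counts of sperm, oocytes and cleavage embryos each join 3 replicates and those of gastrulae join 2 replicates. Each stage is thus a single set of counts with no replicate check, and the spread between animals or libraries cannot be told from these values.

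DNA methylation in animals sits mostly on the cytosine of CpG dinucleotides and is copied at replication by maintenance methyltransferases that read the methylated parent strand. Tunicate genomes carry it as a mosaic pattern, in which long methylated domains, found mainly over transcribed gene bodies in the related Ciona intestinalis, alternate with long unmethylated domains. A deaminated methylcytosine becomes T, so methylated DNA tends to lose CpGs over evolutionary time, and unmethylated islands inside methylated DNA are known in vertebrates as CpG islands.

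Reads over CpGs summed to 265282981 in sperm, 167743373 in oocytes, 347709270 at cleavage and 227875359 in gastrulae, with a median of 41, 21, 50 and 37 reads per CpG. Over the gaps the median was 49.5, 25.9, 61.7 and 43.5 reads per CpG in the same order. Unmethylated windows between unmethylated windows had 50.3, 25.6, 62.1 and 43.8, so the gaps were covered much like the other unmethylated windows. In no stage did a gap exceed 5 times the median depth of its file, and between 12 and 20 gaps exceeded the median by more than 2 times. The gap windows held 151846, 79497, 193698 and 130236 reads, which makes the oocyte values the least precise. All intervals below are 95% Wilson binomial intervals and cover counting error only.

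A gap of 1 window in methylated surroundings was an unusual place for an unmethylated window. Of 70751 windows below 0.2 in all 4 stages, 65249 had both neighbours measured in sperm. Among these, 55854 windows, or 85.6%, lay between 2 unmethylated neighbours, and 2340, or 3.59%, lay at a border with 1 methylated and 1 unmethylated neighbour. The 99 gaps were 0.152% of them, a share of windows on this grid and not of unmethylated stretches. A further 404 windows had 1 methylated and 1 intermediate neighbour and 382 had 2 intermediate neighbours, so the strict bound of 0.8 leaves out windows with a similar setting. Seen from the methylated side, 31381 measured windows lay between methylated neighbours, and 18142 of these were themselves above 0.8 in all 4 stages.

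The bounds cut through a continuous range of levels, and windows close to either side of them had nearly the same values. Just inside the bound of 0.2, the gap on scaffold_3 from 3964001 to 3965000 reached 0.196 in gastrulae and that on scaffold_146 from 157001 to 158000 reached 0.194 in sperm. Just outside it, the windows on scaffold_142 from 221001 to 222000 and on scaffold_77 from 404001 to 405000 reached 0.206 and 0.207. Only 25 windows between methylated neighbours had their highest level between 0.2 and 0.3. At the neighbour bound, the gaps on scaffold_227 from 1313001 to 1314000 and on scaffold_192 from 1074001 to 1075000 had a neighbour just above the bound in sperm, at 0.8005 for the latter. A window on scaffold_303 from 2129001 to 2130000 was left out for a neighbour at 0.7996, and one on scaffold_266 from 509001 to 510000 for a neighbour at 0.798. All coordinates are on the build CSAV2.0 and are counted from 1. What the gene annotation or the base sequence holds at these places was not analysed here.

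The gaps were low at every stage, but most were not empty of methylation. Their mean level was 0.0879 ± 0.0529 (SD over 99 windows) in sperm, 0.0732 ± 0.0478 in oocytes, 0.0782 ± 0.0506 at cleavage and 0.0789 ± 0.0528 in gastrulae. Pooled over all their reads, 0.0934 of the reads carried methylation in sperm (0.0919 to 0.0949), 0.0766 in oocytes (0.0748 to 0.0785), 0.0809 at cleavage (0.0797 to 0.0821) and 0.0843 in gastrulae (0.0828 to 0.0858). In all 4 stages, 52 of the 99 gaps stayed below 0.1, 21 stayed below 0.05 and 9 stayed below 0.02. Unmethylated windows between unmethylated neighbours had a mean level of 0.0146 in sperm, 0.0131 in oocytes, 0.0128 at cleavage and 0.0128 in gastrulae. The gap windows thus stood above the unmethylated bulk of the genome and far below their own neighbours, whose mean level was 0.874, 0.804, 0.826 and 0.829 in the same order of stages.

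**Figure D1:**
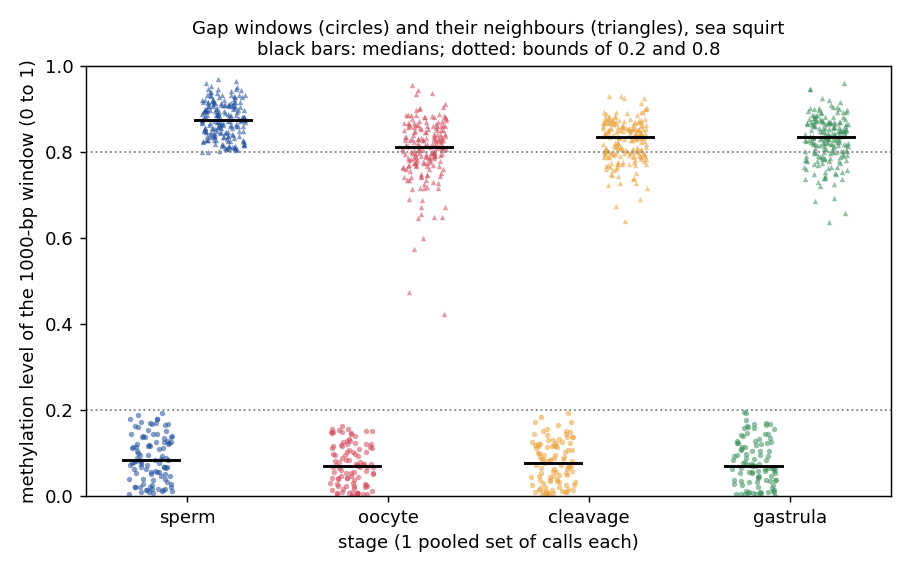
Methylation level (0 to 1) of each gap window (circles) and each neighbour window (triangles) in the 4 stages, with medians as black bars and the bounds of 0.2 and 0.8 as dotted lines. The 99 gaps lie below 0.2 in every stage by choice, and their neighbours, whose own level was bounded in sperm only, spread from 0.422 upward in oocytes.

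Oocytes had lower levels than sperm in most gaps, while the order of sperm and the embryos depended on the windows: with windows shifted by 500 bp the mean was 0.0744 at cleavage and 0.0734 in sperm. The gap level had its maximum in sperm in 52 gaps, in gastrulae in 22, in oocytes in 13 and in cleavage embryos in 12. It was lowest in oocytes in 43 gaps and lowest in sperm in 5. The oocyte level was below the sperm level in 76 of 99 gaps, with a mean difference, oocyte minus sperm, of -0.0146 (SD 0.0281). The same count over other windows was not made. Over all measured windows the mean was 0.387 in sperm and 0.355 in oocytes. Over unmethylated windows between unmethylated windows it was 0.0146 and 0.0131, so no trait particular to the gaps can be read from this. In the neighbours the mean difference, oocyte minus sperm, was -0.0694 (SD 0.0585) over 194 windows, and 188 of them were lower in oocytes. Neighbours were chosen for high sperm levels, which by itself favours lower values elsewhere, and all windows above 0.8 in sperm likewise had means of 0.890 in sperm and 0.816 in oocytes.

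Since every level had to be below 0.2, the range that a gap could show over the stages was limited by the choice. The range had a median of 0.0267, was under 0.05 in 77 gaps and reached 0.1 or more in 4. Across the 99 gaps, Pearson's r between stages ran from 0.821 for oocytes with gastrulae to 0.912 for sperm with cleavage embryos, given as a description over windows that share the same 4 sets of counts. CpGs of the methylated surroundings that fall inside a window enter its level in every stage, and their part in r was not tested. The largest range was on scaffold_260 from 468001 to 469000, with 0.0567 in sperm, 0.0366 in oocytes, 0.0325 at cleavage and 0.148 in gastrulae. That gap was thinly read, with 134, 98, 257 and 50 reads in the same order, and its gastrula value rests on few CpGs near its right end.

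The next largest range had deeper support. On scaffold_217 from 17001 to 18000 the gap had a level of 0.123 in sperm, 0.0206 in oocytes, 0.0462 at cleavage and 0.132 in gastrulae, over 894, 927, 1419 and 1286 reads. Sperm and gastrulae were high and oocytes and cleavage embryos low, and the methylated reads sat in a group of CpGs just left of the centre, while the right side stayed near 0 in all stages. At 17456 the CpG read 0.424 in sperm, 0.0526 in oocytes, 0.18 at cleavage and 0.528 in gastrulae, over 33, 19, 50 and 36 reads.

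The gap with the most CpGs, 64, lay on scaffold_293 from 1001 to 2000 and was among the emptiest. Its level was 0.00967 in sperm, 0.00807 in oocytes, 0.00823 at cleavage and 0.00744 in gastrulae, over 8353, 3140, 8730 and 7737 reads. The CpG at 1957 still read 0.0336 in sperm, and the next at 2064 already read 0.721. The level was uneven from there on, with 0.323 at 2085 and 0.964 at 2351 in sperm. The 4 stages did not stand apart inside the gap, and the window before it had 0.876, 0.788, 0.863 and 0.880 in sperm, oocytes, cleavage embryos and gastrulae. The gap with the next most CpGs, 50, on scaffold_225 from 6001 to 7000, was less even, with 0.0555 in sperm, 0.0968 in oocytes, 0.0406 at cleavage and 0.0378 in gastrulae.

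The fewest CpGs, 8, were found in gaps on scaffold_279 from 484001 to 485000 and on scaffold_3 from 5734001 to 5735000. The former also had the largest contrast, 0.899 between its lower neighbour and itself in sperm. It read 0.0322 in sperm, 0.0295 in oocytes, 0.0264 at cleavage and 0.00595 in gastrulae, against 0.931, 0.828, 0.854 and 0.896 in the window before it. The latter read 0.0275, 0.00781, 0.0205 and 0.0706 in the same order. The contrast was 0.873 on scaffold_290 from 716001 to 717000, where the gap read 0.0218, 0.0246, 0.0261 and 0.0105. Low levels in these gaps are part of the choice. Over all 99 gaps the number of CpGs and the sperm level showed little relation (Pearson's r -0.0162, a description over windows).

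**Figure D2:**
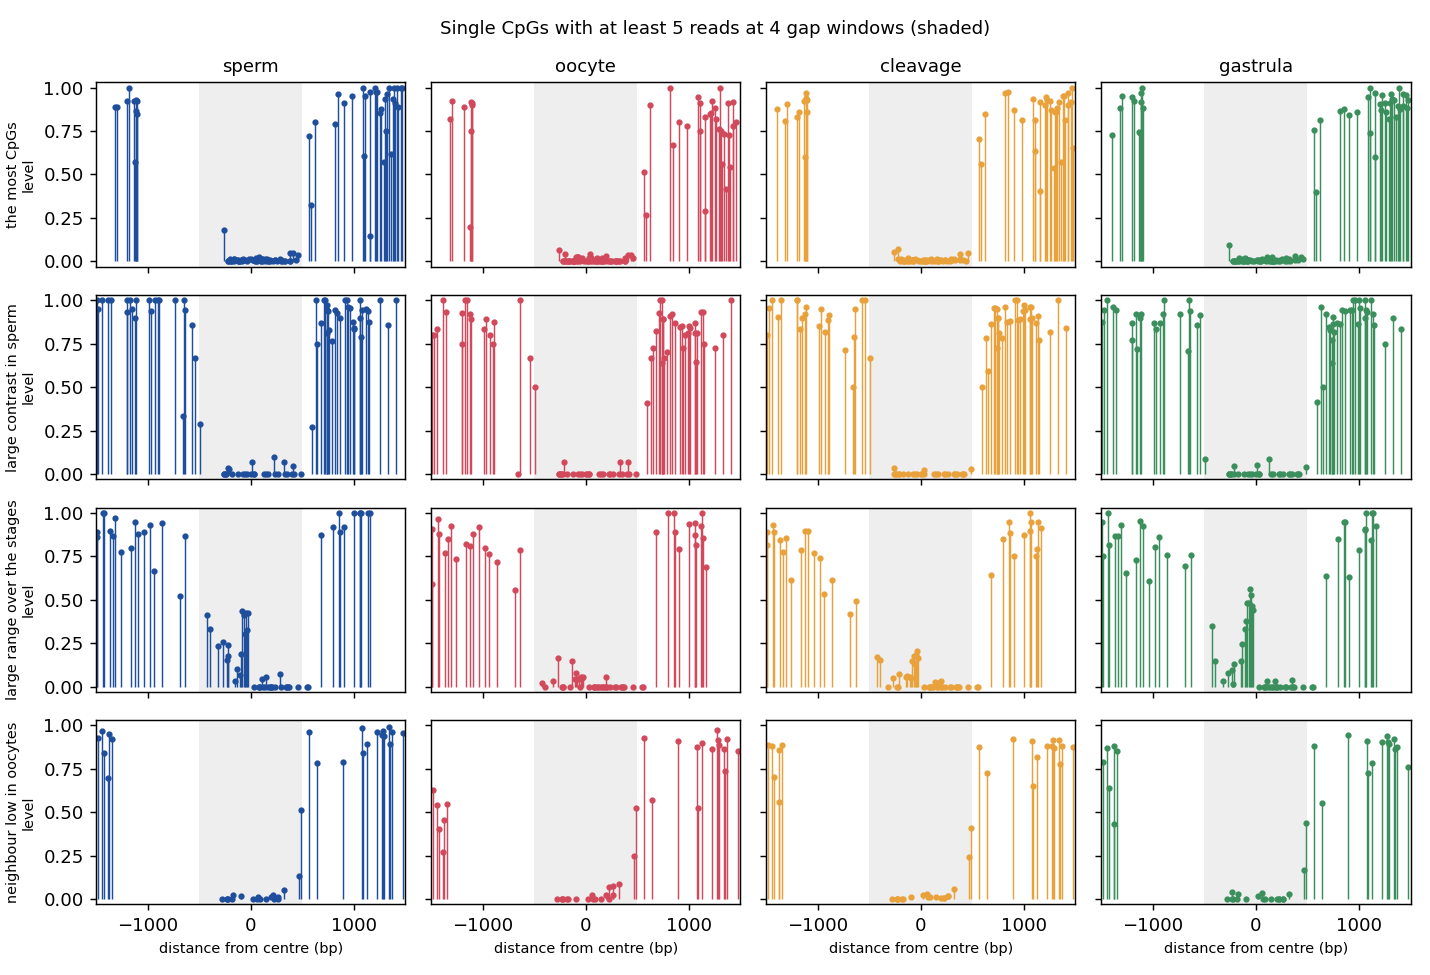
Methylation level (0 to 1) of single CpGs with at least 5 reads against the distance from the window centre (bp), for 4 gap windows (rows, shaded) in the 4 stages (columns). CpGs near 0 inside the window give way to CpGs mostly above 0.5 outside it in each row, and in the row with a large range the CpGs left of the centre differ between stages.

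Averaged over the gaps, the level fell gradually on the inner side of the edge, from the methylated surroundings to the core. The edge of a gap was set, separately in each stage, at the innermost of 3 consecutive CpGs at 0.5 or more on either side. The unmethylated stretch is what lies between both edges. Where a window touched more than 1 stretch, the one that overlapped it most was taken, so an edge could lie inside the window. In sperm the mean CpG level was 0.863 at 50 to 100 bp outside the edge and 0.836 in the last 50 bp outside it. It was 0.346 in the first 50 bp inside, 0.244 at 50 to 100 bp, 0.168 at 100 to 150 bp, 0.104 at 150 to 200 bp and 0.0605 at 200 to 250 bp, and it was 0.0204 at 400 to 450 bp. The jump at the edge itself follows from how the edge is set. The decline inside it does so in part, since methylated CpGs in runs shorter than 3 count as inside. An example is the CpG at 2064 on scaffold_293, at 0.721 in sperm. How large that part is was not tested, and the averages do not show a gradual fall within a single gap. Around the sperm edge the oocyte level was 0.740 in the last 50 bp outside and 0.330 in the first 50 bp inside, the cleavage level was 0.778 and 0.337, and the gastrula level was 0.791 and 0.323. The other stages therefore passed from high to low at the place where sperm did.

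**Figure D3:**
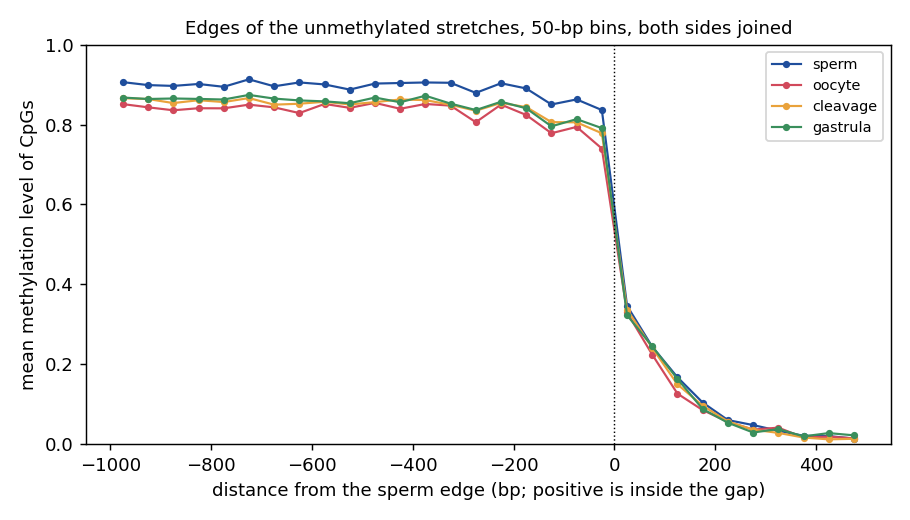
Mean methylation level of CpGs (0 to 1) in bins of 50 bp against the distance from the sperm edge (bp, positive inside the gap), with both edges of the 99 gaps joined and 1 line for each stage. In sperm the level goes from 0.836 just outside to 0.346 just inside and 0.0605 at 200 to 250 bp, and the other stages follow it with lower levels outside.

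The unmethylated stretches were about as long as the windows used to find them, which is part of the choice. In sperm they ran from 756 to 2065 bp with a median of 1137 bp, and the median was 1181 bp in oocytes, 1137 bp at cleavage and 1172 bp in gastrulae. A window could reach past an edge and still count, and between 668 and 1000 of its bases lay inside the sperm stretch, with a median of 977, so that much shorter stretches could hardly be found. Genome-wide in sperm, 9392 stretches with at least 5 CpGs and an edge on both sides had a median of 2706 bp. Of these, 1837 (19.6%) had a width within the range of the gaps, 2383 were narrower and 5172 were wider.

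Most edges stayed within 100 bp over the stages, which is in part the choice. Of 198 edges, 147 (74.2%) lay at the very same CpG in cleavage embryos as in sperm, 128 (64.6%) in gastrulae and 123 (62.1%) in oocytes. In all 4 stages, 90 edges (45.5%) lay at the same CpG. For 130 edges (65.7%), the places in the 4 stages all lay within 100 bp of each other. These shares were not set against stretches in other settings. Where an edge moved, it mostly moved outward. Relative to sperm, 59 edges lay further out and 16 further in for oocytes, 33 and 18 for cleavage embryos, and 51 and 19 for gastrulae. Accordingly the stretch was wider than in sperm in 43 gaps and narrower in 14 in oocytes, 30 and 15 at cleavage, and 45 and 14 in gastrulae. Sperm alone set the neighbour bound, which by itself favours edges that lie further in in sperm. The gap window had to be below 0.2 in all 4 stages, which limits how far an edge could move inward. The level outside the gaps was also lower in the other stages than in sperm. Edges used only CpGs with at least 5 reads, and the median depth was 41 reads per CpG in sperm, 21 in oocytes, 50 at cleavage and 37 in gastrulae. The part of each of these in the shift of the edges was not tested.

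**Figure D4:**
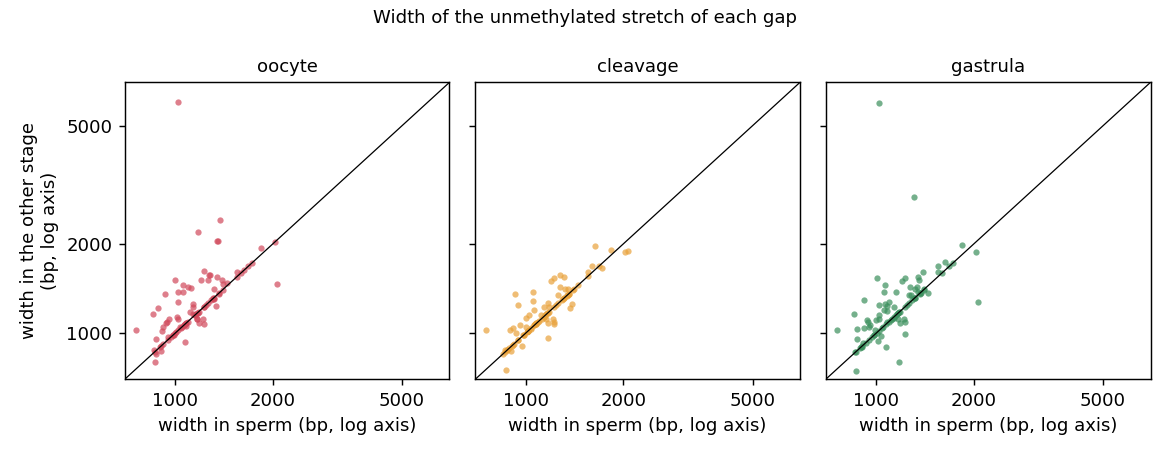
Width of the unmethylated stretch of each gap in oocytes, cleavage embryos and gastrulae (bp, log axis) against its width in sperm (bp, log axis), with the line of equal width. Many gaps lie on the line, more lie above than below it, and the gap at 6008 bp in oocytes and 5946 bp in gastrulae is on scaffold_227.

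The extremes of width had different settings. The widest gap in sperm, 2065 bp on scaffold_212 around the window from 15001 to 16000, measured 1463 bp in oocytes, 1899 bp at cleavage and 1270 bp in gastrulae. Its core, at least 200 bp from each sperm edge, read 0.112 in sperm, 0.205 in oocytes, 0.0400 at cleavage and 0.244 in gastrulae, the highest of any gap in oocytes and in gastrulae. The next widest, 2026 bp on scaffold_279, measured 2026, 1878 and 1878 bp in the other stages and held few CpGs, 0.494 per 100 bp. No CpG was listed between 484359 and 485782, so most of this width holds no measured CpG. The CpG at 485782 had 1 read in sperm and 3 in oocytes, but 12 at cleavage and 5 in gastrulae. The narrower width there thus goes with missing reads in sperm and oocytes and cannot be told apart from a change in methylation. The narrowest, 756 bp on scaffold_22 around the window from 219001 to 220000, measured 1024 bp in each of the other 3 stages. The next narrowest, 854 bp on scaffold_224 around the window from 1291001 to 1292000, measured 1164, 854 and 1164 bp.

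On scaffold_227 around the window from 1313001 to 1314000, the stretch measured 1018 bp in sperm and in cleavage embryos but 6008 bp in oocytes and 5946 bp in gastrulae. The window before the gap was measured in sperm only, at 0.883, since too few of its CpGs had 5 reads in the other 3 stages. The bounding CpG at 1312974 had 12 reads in sperm and 7 in cleavage embryos, but 1 read in oocytes and 0 in gastrulae. The widening there thus goes with missing reads and cannot be told apart from a change in methylation.

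Much of the methylation counted in the gaps came from CpGs of the window that lay beyond the edge. Only 38 of the 99 windows lay wholly inside their sperm stretch, with a median level of 0.0276 in sperm, 0.0244 in oocytes, 0.0263 at cleavage and 0.0259 in gastrulae. The other 61 windows reached past an edge and had medians of 0.114, 0.0936, 0.103 and 0.0957. Window CpGs inside the stretch had a mean level of 0.0421 in sperm (2615 CpGs), 0.0336 in oocytes, 0.0363 at cleavage and 0.0369 in gastrulae. The window CpGs outside it, 170 in sperm, had 0.781, 0.688, 0.725 and 0.728. Across gaps, the sperm level went with the number of window bases inside the stretch (Pearson's r -0.605 over 99 windows, a description).

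The core of the stretch, defined as above, was close to the unmethylated bulk but slightly above it. Core CpGs had a mean level of 0.0280 in sperm, 0.0258 in oocytes, 0.0226 at cleavage and 0.0290 in gastrulae. CpGs of unmethylated windows between unmethylated windows had 0.0139, 0.0125, 0.0122 and 0.0120. No methylated read was found at 59.2% of core CpGs in sperm and at 74.9%, 58.5% and 68.2% in oocytes, cleavage embryos and gastrulae, shares that move with the depth of each stage. A level above 0.1 was seen at 7.46% of core CpGs in sperm against 2.81% of CpGs in the unmethylated bulk. Per gap, the median core level was 0.0144, 0.0121, 0.0114 and 0.0109 over the 96 gaps with at least 3 core CpGs, and it was below 0.05 in 82, 82, 85 and 84 of them.

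A gap near a bound could have a core close to 0, and the gaps named above for their closeness to a bound did where the core was measured. On scaffold_3 from 3964001 to 3965000, the window level was 0.190 in sperm, 0.152 in oocytes, 0.193 at cleavage and 0.196 in gastrulae, whereas the core read 0.0153, 0.0107, 0.0224 and 0.0163. On scaffold_146 from 157001 to 158000, the window read 0.194, 0.129, 0.125 and 0.168 and the core 0.00976, 0.0154, 0.0111 and 0.0147. On scaffold_192 from 1074001 to 1075000, the window read 0.169, 0.147, 0.172 and 0.169 and the core 0.00400, 0.00998, 0.00362 and 0.00831. In these windows it was the CpGs near or beyond an edge, and not those of the core, that carried the level. That did not hold for every gap with a high level: on scaffold_3 from 5562001 to 5563000 the window read 0.179 in sperm and the core 0.167.

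A few cores held methylated CpGs. Of 2116 core CpGs with at least 5 reads in all 4 stages, 3 had a level of 0.5 or more in every stage and 16 had it in 1 to 3 stages, and these 19 lay in 11 gaps. On scaffold_222 the CpG at 212902 read 0.895 in sperm, 0.744 in oocytes, 0.857 at cleavage and 0.906 in gastrulae, over 95, 43, 91 and 64 reads. The whole gap around it, in the window from 212001 to 213000, had levels of 0.118, 0.120, 0.108 and 0.128, and its stretch measured 1245 bp in all 4 stages. No other core CpG of this gap with at least 5 reads in all 4 stages reached 0.5 in any stage. The levels of the others are not given here, and they need not be 0.

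The other CpGs at 0.5 or more in every stage lay on scaffold_212 at 15912 (0.618, 0.722, 0.577 and 0.583 in sperm, oocytes, cleavage embryos and gastrulae) and on scaffold_257 at 1935025 (0.600, 0.500, 0.525 and 0.721). The highest sperm core level of any gap, 0.167, was on scaffold_3 in the window from 5562001 to 5563000. There the adjacent CpGs at 5562270 and 5562276 read 0.719 and 0.656 in sperm, 0.318 and 0.391 in oocytes, 0.650 and 0.720 at cleavage, and 0.711 and 0.70 in gastrulae. Oocytes were low at both CpGs, over 22 and 23 reads. On scaffold_50 the CpG at 440352 read 0.733 in sperm, 0.390 in oocytes, 0.650 at cleavage and 0.313 in gastrulae, over 86, 41, 103 and 83 reads.

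The gaps held more CpGs than the windows beside them. The choice used CpG number directly only through the minimum of 5 CpGs, but it can favour CpG-rich windows indirectly. A level is a mean over CpGs, so the 61 windows that reached past an edge stayed below 0.2 more easily with many unmethylated CpGs. The part of this in the surplus was not tested. A gap had a median of 28 CpGs (8 to 64) and a neighbour 20 (5 to 53), where all measured windows had 29, windows methylated in all 4 stages had 22 and unmethylated windows between unmethylated windows had 37. In CpG number the gaps thus lay between the methylated and the unmethylated bulk. More CpGs than both neighbours were counted in 57 of 99 gaps (57.6%), against 31.7% of unmethylated windows between unmethylated windows, 34.7% of methylated windows between methylated windows and 30.5% of all windows with both neighbours measured. Fewer CpGs than both neighbours were counted in 6 gaps (6.06%), against 28.2% of all such windows. These shares are set side by side with no test, since the gaps were chosen with earlier results of these data known.

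The surplus of CpGs sat in the middle of the gaps. Listed CpGs numbered 3.27 per gap in the 100 bp left of the centre and 3.62 at 100 to 200 bp to the right of it. They dropped to 1.38 at 500 to 600 bp on the left and 1.67 on the right, just where the level rose, and came back to 2.16 and 2.32 at 1000 to 1100 bp. The sperm level ran from 0.010 in the 100 bp right of the centre to 0.681 at 500 to 600 bp and 0.895 at 1000 to 1100 bp. Measured by the stretch and not by the window, the density was smaller in its difference, with a median of 2.46 CpGs per 100 bp inside the stretch and 2.15 in the 1000 bp on each side. The stretch was denser than its surroundings in 63 of 99 gaps and denser than each side alone in 44. A stretch ends by definition at a CpG and its inner margin can be empty of CpGs, as on scaffold_63 around the window from 53001 to 54000, which lowers the density inside.

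**Figure D5:**
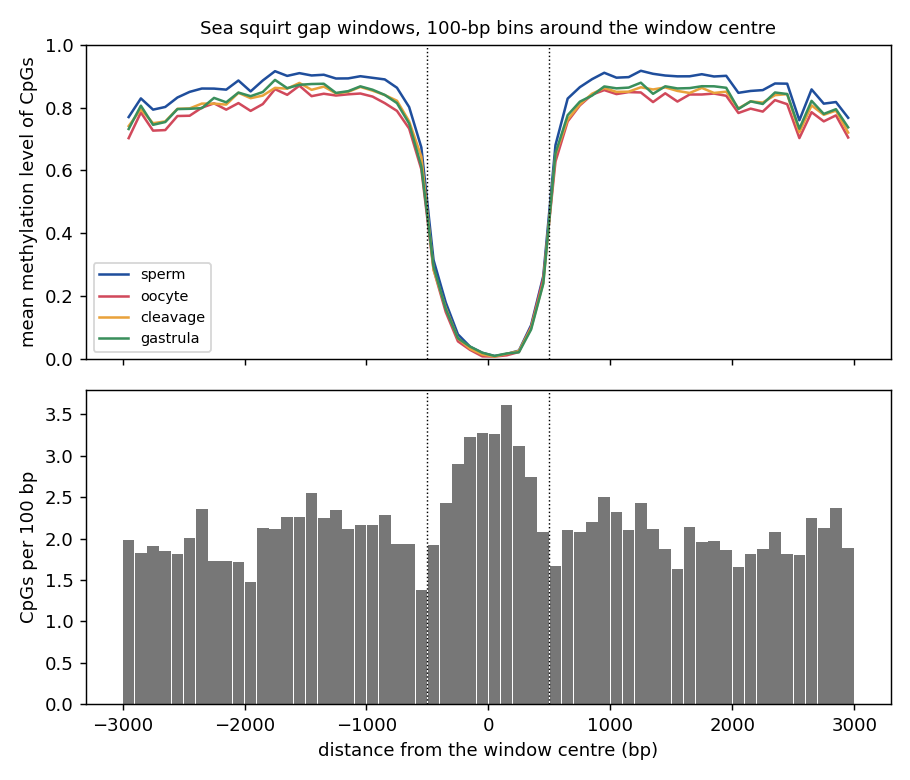
Mean methylation level of CpGs (0 to 1, upper panel, 1 line for each stage) and listed CpGs per 100 bp and gap (lower panel) against the distance from the centre of the 99 gap windows (bp), in bins of 100 bp. The level is lowest at the centre, where CpGs number 3.26 to 3.27 per 100 bp, and the bins just outside the window bounds, marked by dotted lines, hold 1.38 and 1.67.

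The rule used the level of a neighbour window itself in sperm only, so the other stages, oocytes, cleavage embryos and gastrulae, could be compared by test. The gap beside it had to be below 0.2 in these stages too, and a stretch can run into a neighbour. On scaffold_63, for example, the sperm stretch begins at 52150. The tested values are therefore not wholly free of the choice. Methylated and unmethylated reads of each window were compared between pairs of stages by Fisher's exact test, two-sided, with Benjamini-Hochberg adjustment over all 134565 windows, and a window was called at an adjusted p below 0.05 where the mean levels also differed by 0.2 or more. This compares 2 pooled sets of reads and not the conditions, and reads of a fragment are not independent. Between oocytes and cleavage embryos, 3 of 194 measured neighbours (1.55%) were called, all higher in cleavage embryos, against 0.953% of all windows and 1.26% of windows above 0.8 in sperm. By the adjusted p alone, 40 neighbours (20.6%) passed against 16.4% of all windows and 21.3% of windows above 0.8 in sperm. Between oocytes and gastrulae, 3 neighbours (1.55%) were called, all higher in gastrulae, against 1.38% of all windows and 1.82% of windows above 0.8 in sperm. By the adjusted p alone, 46 neighbours (23.7%) passed, 42 of them higher in gastrulae, against 19.9% of all windows and 26.0% of windows above 0.8 in sperm.

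Between cleavage embryos and gastrulae, Fisher's exact test called 0 neighbours, against 0.482% of all windows, while 64 had an unadjusted p below 0.05. Of windows above 0.8 in sperm, 0.231% were called. By the adjusted p alone, 37 neighbours (19.1%) passed against 15.8% of all windows and 13.8% of windows above 0.8 in sperm. With so few neighbours called, no difference from other windows can be read from these shares. The median difference over the neighbours was 0.0134 from oocytes to cleavage embryos, 0.0179 from oocytes to gastrulae and 0.00338 from cleavage embryos to gastrulae. Over windows above 0.8 in sperm it was 0.0231, 0.0287 and 0.00639 in the same order.

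The same 3 neighbour windows were called in both comparisons with oocytes. The gap beside each was low in every stage by choice. On scaffold_63 the window from 52001 to 53000 read 0.885 in sperm, 0.475 in oocytes, 0.796 at cleavage and 0.745 in gastrulae. Fisher's exact test gave an adjusted p of 8.86e-16 for oocytes against cleavage embryos and 3.35e-09 for oocytes against gastrulae. The window had only 6 CpGs, and each of them was lower in oocytes than in the other stages, for example 0.273 at 52120 against 0.699 in sperm, 0.561 in cleavage embryos and 0.433 in gastrulae. The gap next to it, from 53001 to 54000, read 0.0403 in sperm, 0.0540 in oocytes, 0.0438 at cleavage and 0.0385 in gastrulae, and the window on its other side went from 0.920 in sperm to 0.838 in oocytes. The larger fall was thus on 1 side of the gap.

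On scaffold_241 the window from 564001 to 565000 read 0.848 in sperm, 0.422 in oocytes, 0.728 at cleavage and 0.658 in gastrulae. Its adjusted p by Fisher's exact test was 0.000279 against cleavage embryos and 0.000807 against gastrulae, with only 68 reads in oocytes and 9 listed CpGs. The gap next to it, from 563001 to 564000, read 0.0207, 0.0242, 0.0560 and 0 in the 4 stages, and the stretch widened from 1371 bp in sperm to 2405 bp in oocytes. On scaffold_221 the window from 410001 to 411000 read 0.601 in oocytes, 0.802 at cleavage and 0.816 in gastrulae, with an adjusted p of 5.06e-06 and 1.22e-06. The gap next to it, from 411001, read 0.168 in sperm, 0.148 in oocytes, 0.165 at cleavage and 0.162 in gastrulae.

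Methylated windows usually went on beyond the direct neighbours of a gap. A median of 4 methylated windows in a row (1 to 31) flanked a gap on each side in sperm, and 140 of 198 sides had at least 3. On 24 sides the neighbour was the only methylated window. Over the whole genome, 10379 runs of methylated windows had a median of 3 windows, and 6117 of them had at least 3 and 2373 only 1. The gap on scaffold_63 described above had 25 methylated windows before it and 10 after it. The 99 gaps were spread over 54 of 365 scaffolds, with 1 gap on 36 of these, 10 on scaffold_303, 7 on scaffold_3 and 6 on scaffold_119. On the same scaffold, successive gaps were a median of 249000 bp apart, and the closest pair, on scaffold_212 from 15001 and from 20001, was 5000 bp apart. Their window levels in sperm, oocytes, cleavage embryos and gastrulae were 0.125, 0.149, 0.121 and 0.0933 for the former and 0.111, 0.118, 0.0919 and 0.141 for the latter.

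The 10 gaps of scaffold_303 give the spread within a single scaffold. Their sperm levels ran from 0.0468 to 0.166 and their sperm widths from 921 to 1227 bp. In 3 of them, in the windows from 155001, 1411001 and 2635001, the stretch had the same width in all 4 stages, at 984, 1159 and 1166 bp. The window from 1411001 had levels of 0.0852 in sperm, 0.0791 in oocytes, 0.103 at cleavage and 0.164 in gastrulae with no change in width. The window from 1975001 had 0.0468, 0.0183, 0.0134 and 0.0268. Gaps of a single scaffold thus differed in level and in how their edges held over the stages.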

How the data were processed

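Per the labels, the deposited counts of each stage pool its replicates, and the authors made them with Trimmomatic (trimming), Bismark (alignment to CSAV2.0 plus lambda DNA, deduplication and calling) and bamUtil (overlap between mates clipped). SAMtools 0.1.19 is named in the labels, and the other versions are not given in the sources used here. The deposited counts are reads with and without methylation per CpG. The deposited fraction per CpG equals methylated over all reads within 5.55e-16 and is not corrected for non-conversion, which adds a small level to every unmethylated CpG.

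Windows, gaps, stretches and cores were computed as the report defines them, with Python 3.11.15, numpy 2.4.6, pandas 2.3.3, scipy 1.17.1, numba 0.67.0 and matplotlib 3.10.9. CpG number is the number of CpGs listed in any stage. The window levels equal means over CpGs and not over reads. The tests were Fisher's exact test with Benjamini-Hochberg adjustment and were tested on simulated data. The difference of 0.2 follows the study's methods, whose DSS was not used here. The members and lists were chosen with earlier results of these data known. Named regions are the 2 gaps with the most and the fewest CpGs, the largest contrast, the closest place to each bound (with the 2 windows just outside), the largest range over stages, the largest fall of a neighbour from sperm to oocyte, and the widest and narrowest stretch. CpGs named in cores, the scaffold with the most gaps and the closest pair were chosen after their values were seen. Alternatives were other minima of reads and CpGs, reads pooled per window, other bounds, minimum differences, window sizes and offsets, thinning to the oocyte depth, CpGs of very high depth left out, and other edge definitions. Honey bee and the sea anemone from Massachusetts were not used here.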

Additional observations from a re-analysis of the deposited data

How the results depend on the processing

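The number of gaps, 99, was 82 to 105 under other minima of reads or CpGs, pooled reads, thinning, removal of CpGs of very high depth and shifted windows (shifts by 250 and 750 bp were added after seeing the data). It was 5 with bounds of 0.1 and 0.9, 21 with neighbours above 0.8 in all 4 stages and 5 with windows of 500 bp, whose stretches had a median sperm width of 1072, 1051 and 655 bp. The definition sets which gaps count: pooled reads kept 76 of the 99 and thinning 94. The share of edges within 100 bp in all 4 stages was 58.9% with edges at 5 consecutive CpGs and 90.0% with windows of 500 bp. Neighbours called between cleavage embryos and gastrulae were 1 of 203 with at least 3 CpGs (0.538% of all windows) and 4 of 194 with a difference of 0.1 (2.41% of all windows). Those between oocytes and cleavage embryos were 1 of 158 with at least 10 CpGs (0.692% of all windows) and 13 of 194 with a difference of 0.1 (4.77%). They were 0 of 10 with bounds of 0.1 and 0.9, 0 of 42 with neighbours above 0.8 in all 4 stages, 0 of 10 with windows of 500 bp and 0 of 206 with a shift by 250 bp, against 0.953% to 1.07% of all windows. Those between oocytes and gastrulae were 1 of 158 (1.08%) with at least 10 CpGs, 16 of 194 (6.22%) with a difference of 0.1 and 0 of 194 (0.317%) with a difference of 0.3, each with the share of all windows in parentheses. They were 0 under the same 4 settings as before (1.38% to 1.54% of all windows), 1 of 159 (1.36%) with a shift by 500 bp and 5 of 188 (1.399%) with a shift by 750 bp. These counts are too small to rank stages. The mean level of the gaps was lower in oocytes than in sperm under all 12 settings that change the gaps or their reads. With windows shifted by 500 bp it was 0.0744 at cleavage and 0.0734 in sperm. No paired analysis was possible because the deposited counts pool the replicates of each stage.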

Other observations

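Gaps of more than 1 window were also present. In all, 350 runs of unmethylated windows lay directly between methylated windows, of which 99 were the gaps of 1 window, 57 had 2 windows, 34 had 3 windows, and the longest had 108 windows.

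Without a window grid, 696 sperm stretches within the width range of the gaps had a level below 0.2 in sperm and more than 0.8 in the 1000 bp on each side. Of these, 665 (95.5%) were below 0.2 in all 4 stages, a share that was not set against stretches in other settings. Of the 696, 94 were the stretch of a gap window, and 91 of these (96.8%) were below 0.2 in all 4 stages. The other 3 reached 0.2 over the stretch in gastrulae. The 602 that were not the stretch of a gap window included 574 (95.3%) below 0.2 in all 4 stages. Over all 602 the mean level was 0.0588 in sperm, 0.0560 in oocytes, 0.0631 at cleavage and 0.0601 in gastrulae. The window grid thus found only some of the short unmethylated stretches in methylated surroundings.

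Low sperm levels between methylated neighbours mostly went with low levels in the other stages. Of 108 such windows, 99 (91.7%) were below 0.2 in all 4 stages, and the other 9 reached 0.2 in oocytes (3 windows), cleavage embryos (6) or gastrulae (6). The same share over all windows below 0.2 in sperm was not computed, so no trait particular to these windows can be read from it. On scaffold_128 the window from 1595001 to 1596000 read 0.0816 in sperm, 0.0579 in oocytes, 0.424 at cleavage and 0.117 in gastrulae, over 6, 6, 9 and 7 CpGs. On scaffold_137 the window from 38001 to 39000 read 0.165, 0.447, 0.178 and 0.166 in the same order, over 42, 14, 40 and 42 CpGs. In both, the CpGs measured were not the same number in each stage, and the part of this in the high value was not tested. On scaffold_279 the window from 609001 to 610000 read 0.178 in sperm, 0.269 in oocytes, 0.342 at cleavage and 0.205 in gastrulae, over 1494, 793, 1975 and 1462 reads.

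The same rule gave 96 windows in sea urchin over its 4 stages and 115 in the sea anemone from Florida over its 5 stages, which is 0.0447% of 214877 and 0.0742% of 155049 unmethylated windows with measured neighbours (0.152% in sea squirt). Per 100 windows above 0.8 in sperm, it gave 0.0660 in sea urchin, 0.282 in sea anemone and 0.204 in sea squirt, so the order of the species depends on what the gaps are counted against. More CpGs than both neighbours were counted in 53 (55.2%) and 98 (85.2%) of them. The species differ in genome, depth and number of stages, and no test was made between them.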
